A study of Camelus dromedarius with 10 samples.

Results

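Microglia are the resident macrophages of the brain. They sense their surroundings through surface receptors, among them the fractalkine receptor, the ADP receptor P2Y12 and the colony stimulating factor 1 receptor, and through the lipid and lipoprotein receptor TREM2, which signals by way of the adaptor TYROBP. Genes of this kind are used as markers because neurons, astrocytes and oligodendrocytes express little of them, although other macrophages and blood monocytes share several. In the supraoptic nucleus (SON), the hypothalamic nucleus whose magnocellular neurones release vasopressin and oxytocin, microglia lie among these neurones and their astrocytes.

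The 8 microglial marker genes described here are AIF1, CX3CR1, P2RY12, CSF1R, ITGAM, TREM2, TYROBP and LAPTM5. They were taken as the rows of the count table whose Ensembl ID is paired with these symbols in lists published with the study, and all 8 were found among 22444 gene IDs. RNA came from the SON, one side of the brain, of male Arabian camels (Camelus dromedarius) aged 4 to 5 years. The 5 control camels (CON) had free access to food and water and the 5 water-deprived camels (WD) had no water for 20 days. Libraries were made from total RNA after removal of ribosomal RNA, and they are named below by group and by the number in their label.

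The way the IDs were paired limits what the comparison of the groups can show. AIF1, CX3CR1, P2RY12, TREM2, TYROBP and LAPTM5 are paired only in the study's list of all genes, ordered by its own test of WD against control, of which the copy used here holds 1819 rows, those with the smallest p. A small unadjusted p was therefore a condition for these 6 genes to be seen at all. Only CSF1R and ITGAM are also paired in a list that does not depend on that test. The difference between the groups is therefore given as a description, and nothing is read from how many of the 8 have a small unadjusted p or a positive fold change. Other well known microglial markers have no paired ID in the rows used here and were not analysed here.

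Total counts were 1665098 to 7518432 per control library and 4227685 to 8126641 per WD library, but 5 gene IDs took much of each library, and the counts outside them ran from 397495 in CON13 to 5872137 in WD9. After TMM normalization 1 read pair was worth 1.20 CPM (counts scaled to the size of the library) in CON13, 0.475 in WD6 and 0.0864 to 0.237 in the others, so low genes are least precise in CON13. Every marker had reads in every library. The smallest counts were 4 each for AIF1 and TYROBP in CON13, which is 4.78 CPM with an exact Poisson interval of 1.30 to 12.3 CPM at 95% (counting error only). CPM is not divided by gene length, so levels are compared between libraries and not between genes.

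All 8 markers had a higher mean level in WD than in control SON, by 1.54-fold for CSF1R to 2.24-fold for TYROBP in the fitted ratio, and none was a differentially expressed gene (DEG). In edgeR's quasi-likelihood fit over all 14432 genes that passed the count filter, 0.499% were DEGs at an adjusted p of 0.05 or less, and 0 of the 8 markers were. DESeq2 also called 0 of the 8. At an unadjusted p under 0.05, 8 of 8 markers passed in edgeR and in DESeq2, beside 9.31% of all genes in edgeR, and for 6 of them the pairing fixed this. The median log2 fold change of the markers was 0.88, and that of all genes was 0.02. In this bulk RNA more cells of a type and more RNA per cell cannot be told apart.

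**Figure D1:**
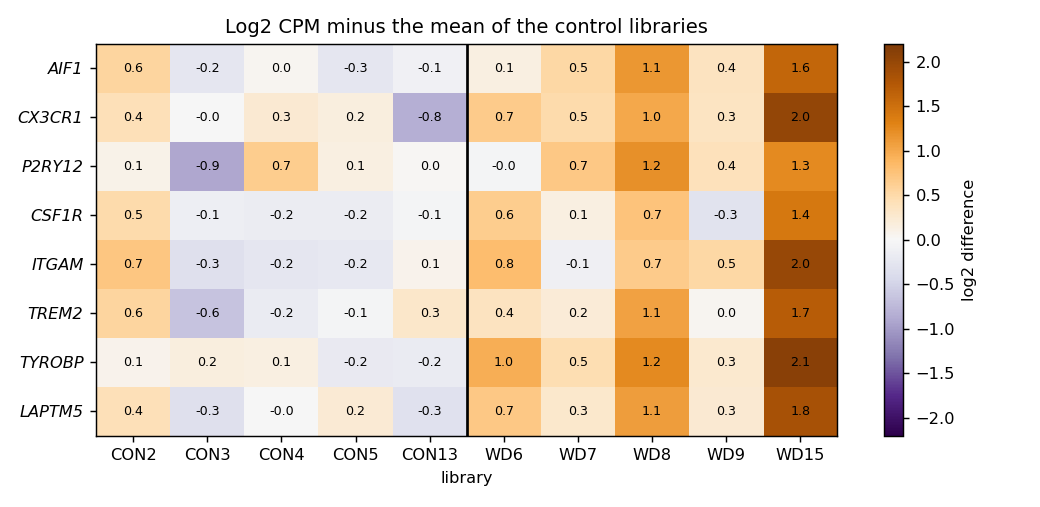
Log2 CPM of each marker (rows) in each library (columns) minus the mean of the 5 control libraries, on a log2 scale with the value printed in each cell. WD15 has the highest value of the 10 libraries for all 8 markers, and WD9 lies close to the controls for several of them.

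One library stood at the top throughout. WD15 had the highest level of the 10 libraries for all 8 markers, and its 8 levels summed to 909.5 CPM. The summed levels of the other WD libraries were 433.7 CPM in WD6, 319.6 CPM in WD7, 512.7 CPM in WD8 and 301.9 CPM in WD9. Those of the controls were 390.6 CPM in CON2, 232.5 CPM in CON3, 266.2 CPM in CON4, 268.8 CPM in CON5 and 257.1 CPM in CON13. The groups overlapped in the sum, since CON2 lay above WD7 and WD9. WD15 exceeded the next highest library by 1.04-fold for P2RY12 and by up to 2.26-fold for ITGAM.

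Without WD15 the 8 log2 fold changes ran from 0.34 for CSF1R to 0.77 for TYROBP, with a median of 0.55, and 3 of 8 had an unadjusted p under 0.05, as had 6.39% of all genes in the same fit. WD15 and WD8 are also the libraries whose RNA integrity number (RIN), as the study lists it, lay farthest from the median. Levels of the markers went down as RIN went up, with Pearson's r from -0.90 for CSF1R to -0.40 for P2RY12 over the 10 libraries. The smallest permutation p of r, adjusted over 16 relations (RIN and depth, 8 markers each), was 0.0044, for CSF1R and TREM2. The smallest for Spearman's rho was 0.07. Libraries were permuted across both groups, so these relations include the difference between the groups, which the pairing fixed for 6 of the 8 genes. The p values therefore do not separate RIN from group. Leaving out WD8 and WD15 gave r from -0.79 for CSF1R to 0.31 for P2RY12, so for P2RY12 and others the relation rested on these libraries. With RIN as a covariate the median log2 fold change was 0.56 and 4 of 8 markers had an unadjusted p under 0.05, as had 9.57% of all genes in that fit. The counts of 3 of 8 and 4 of 8 include the 6 markers that the pairing selected by a small p, so nothing is read from them.

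**Figure D2:**
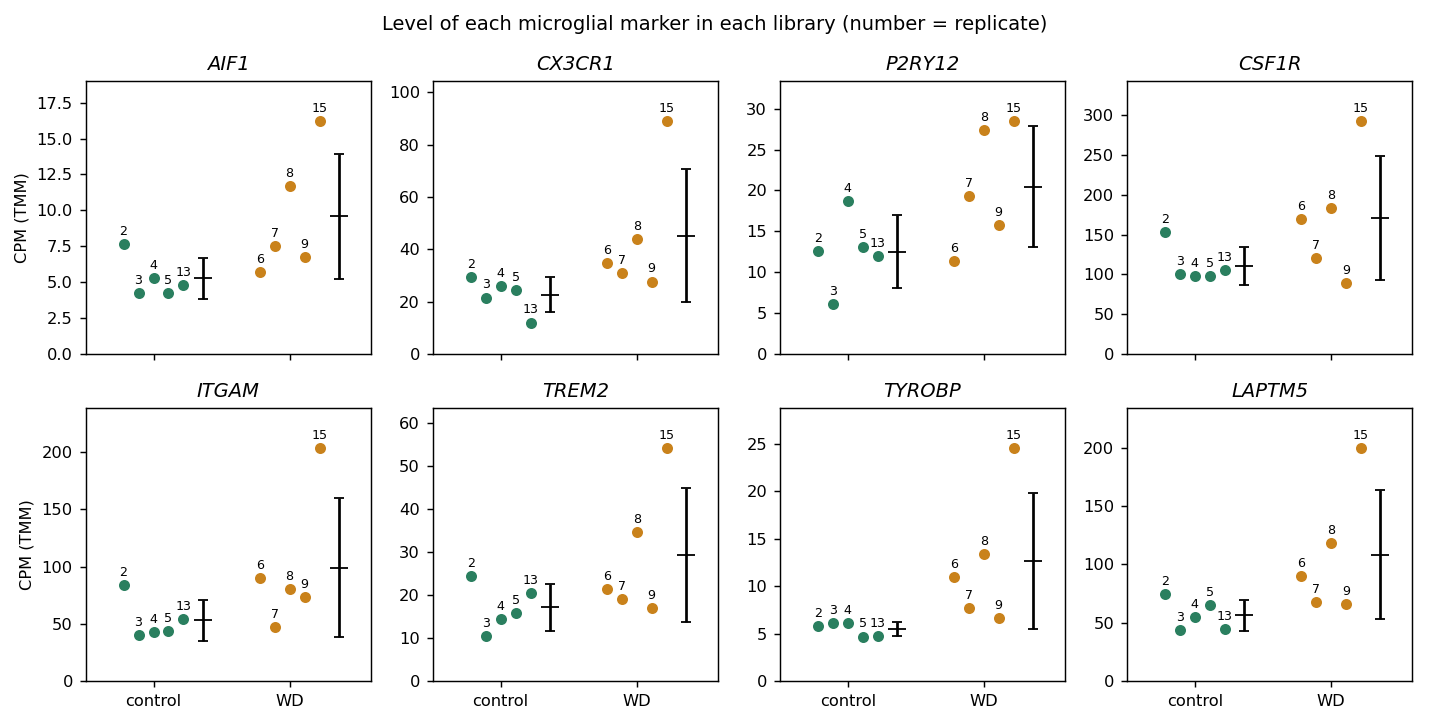
Level of each marker in CPM after TMM normalization (linear axes from 0), one point per library with its replicate number, for the 5 control and the 5 WD libraries, with the mean and SD of each group as a bar. TYROBP is the gene whose groups do not overlap, and WD15 is the highest point in every panel.

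Among the surface receptors, CSF1R encodes the receptor through which microglia receive their survival signal. Its level was 152.8, 100.1, 97.9, 97.9 and 105.2 CPM in CON2, CON3, CON4, CON5 and CON13, and 169.9, 120.7, 183.6, 88.6 and 293.2 CPM in WD6, WD7, WD8, WD9 and WD15. The groups overlapped, with WD9 below every control and CON2 above WD7 and WD9. The means were 110.8 ± 23.7 CPM (SD, n = 5) in control and 171 ± 78.1 CPM in WD, a log2 fold change of 0.62 (SE 0.26, edgeR padj = 0.468). Without WD15 it was 0.34 and with RIN as a covariate 0.28, a fall of more than 1.5 times in both cases.

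CX3CR1 encodes the receptor of fractalkine, a chemokine that neurones present to microglia. Its level was 29.2, 21.5, 25.9, 24.5 and 11.96 CPM in CON2, CON3, CON4, CON5 and CON13, and 34.6, 30.7, 43.9, 27.7 and 89.2 CPM in the WD libraries in the order WD6, WD7, WD8, WD9 and WD15. Only CON2 reached into the WD range, and the lowest control value rests on 10 counts. The log2 fold change was 0.94 (SE 0.296, edgeR padj = 0.242), 0.54 without WD15 and 0.59 with RIN as a covariate.

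P2RY12 encodes the ADP receptor that directs microglial processes and is lowered in activated microglia of rodents. In the same order of libraries its level was 12.6, 6.15, 18.7, 13.03 and 11.96 CPM in control and 11.4, 19.3, 27.4, 15.7 and 28.5 CPM in WD. It was the marker on which WD15 bore least, since WD8 was almost as high, and WD6 lay below 4 of the 5 controls. The log2 fold change was 0.70 (SE 0.292, edgeR padj = 0.469), 0.56 without WD15 and 0.50 without CON3, the lowest control.

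TREM2 was 24.3, 10.4, 14.5, 15.8 and 20.3 CPM in control and 21.4, 19.1, 34.6, 16.9 and 54.2 CPM in WD. WD8 and WD15 lay above every control, and the other WD libraries lay among them. The log2 fold change was 0.80 (SE 0.315, edgeR padj = 0.419), 0.46 without WD15 and 0.42 with RIN as a covariate.

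ITGAM encodes integrin alpha M, which pairs with the beta chain ITGB2 to form complement receptor 3. Its level was 83.9, 40.2, 42.9, 43.9 and 53.8 CPM in control and 90.2, 47.2, 80.4, 73.7 and 203.8 CPM in WD. WD15 stood far above the rest, and CON2 exceeded WD7, WD8 and WD9. The log2 fold change was 0.90 (SE 0.319, edgeR padj = 0.339), and it fell to 0.46 without WD15, the strongest dependence on that library among the 8 genes, and to 0.50 with RIN as a covariate.

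TYROBP encodes the adaptor DAP12, through which TREM2 signals. Its level was 5.76, 6.15, 6.08, 4.68 and 4.78 CPM in control and 10.9, 7.65, 13.4, 6.65 and 24.6 CPM in WD. The groups did not overlap, which held for 1 of the 8 markers and for 2.62% of all genes tested (1.34% with WD higher). The means were 5.49 ± 0.709 CPM (SD, n = 5) in control and 12.6 ± 7.19 CPM in WD, and the log2 fold change was 1.16 (SE 0.342, edgeR padj = 0.207). Without WD15 it was 0.77, and with RIN as a covariate 0.74. The lowest WD value, in WD9, exceeded the highest control value, in CON3, by less than the counting error of these low counts.

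LAPTM5, a lysosomal membrane protein of blood-derived cells and macrophages, was 74.3, 43.8, 55.0, 64.7 and 44.2 CPM in control and 89.7, 67.5, 117.8, 65.9 and 199.8 CPM in WD. CON2 lay above WD7 and WD9, and the other controls lay below every WD library. The log2 fold change was 0.92 (SE 0.274, edgeR padj = 0.217), 0.58 without WD15 and 0.55 with RIN as a covariate. AIF1 encodes the calcium-binding protein IBA1, the usual histological marker of microglia. It was 7.68, 4.26, 5.28, 4.25 and 4.78 CPM in control and 5.70, 7.53, 11.7, 6.74 and 16.3 CPM in WD, with WD8 and WD15 above every control. Its log2 fold change was 0.86 (SE 0.329, edgeR padj = 0.4), and 0.60 without WD15.

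**Figure D3:**
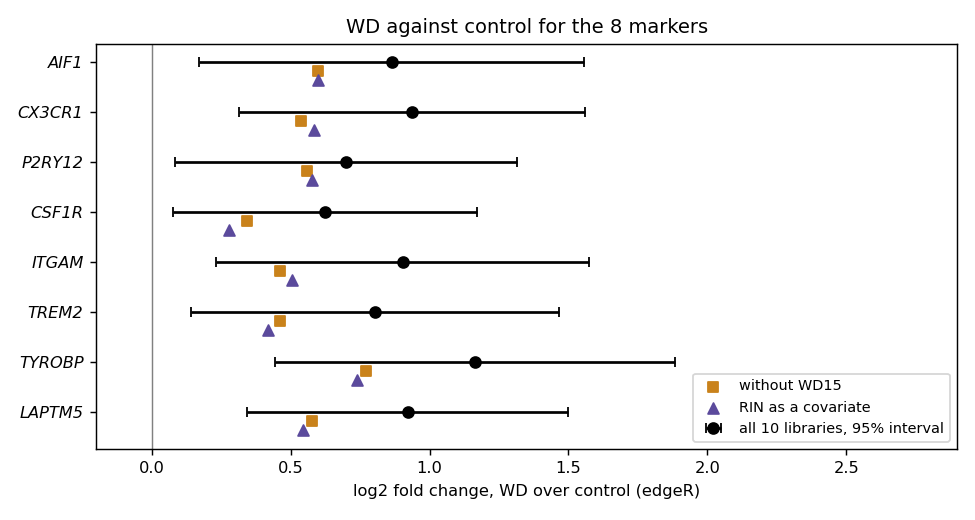
Log2 fold change of WD over control for each marker from edgeR with its 95% interval (black, all 10 libraries), without WD15 (squares) and with RIN as a covariate (triangles). All points lie above 0, and those without WD15 lie between 0.34 and 0.77.

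Each marker was also set against the mean of the other 7 in the same library, on a log2 scale, to see whether the 8 kept their proportions. The WD minus control difference of this ratio ran from -0.28 for CSF1R to 0.27 for TYROBP. The SD of the ratio between libraries of a group was widest for P2RY12, at 0.53 in control. For CSF1R it was 0.18 in control and 0.27 in WD, and for TYROBP 0.35 and 0.19, so these differences were of about the size of the spread within a group, and they were not tested.

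The second question was whether the markers vary together over the libraries. Over the 10 libraries the 28 pairs had a median Pearson's r of 0.85 on log2 CPM and a median Spearman's rho of 0.74, and all 28 were positive in both. CX3CR1 and LAPTM5 were most alike (r = 0.95, rho = 0.96), and P2RY12 and ITGAM least (r = 0.54, rho = 0.29). Leaving out for each pair the 2 libraries farthest from the median of the first gene gave a median r of 0.64, from -0.09 to 0.96, with 22 pairs above 0.5. The relation of P2RY12 with ITGAM rested on those libraries. These r include the difference between the groups, which the pairing fixed for 6 of the 8 genes, so they are given as a description with no p, and no r is given within a group, which holds only 5 libraries.

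With each gene taken as its deviation from its group means, the median r was 0.76, from 0.31 for P2RY12 with ITGAM to 0.90 for CX3CR1 with LAPTM5. Without WD15 the same median was 0.57, from 0.00063 to 0.77 and with all 28 pairs above 0. LAPTM5 was most like the others, with a median r of 0.86, and 6 of the other 7 markers were among the 144 genes (1% of those tested) whose deviations were most like its own. TREM2 and CSF1R followed with 4 of 7 each. P2RY12 was least like the others, with a median r of 0.47 and 0 of 7. Without WD15 the order at the top changed, with median r of 0.67 for TREM2 and 0.64 for both LAPTM5 and CSF1R, and P2RY12 stayed lowest at 0.29. Over all ordered pairs of markers 24 of 56 were in this top 1%. The libraries also differ in depth and RNA quality. On deviations from a fit on group and depth the median r of the 28 pairs was 0.82, and on deviations from a fit on group and RIN it was 0.44, an alternative added after seeing the data.

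**Figure D4:**
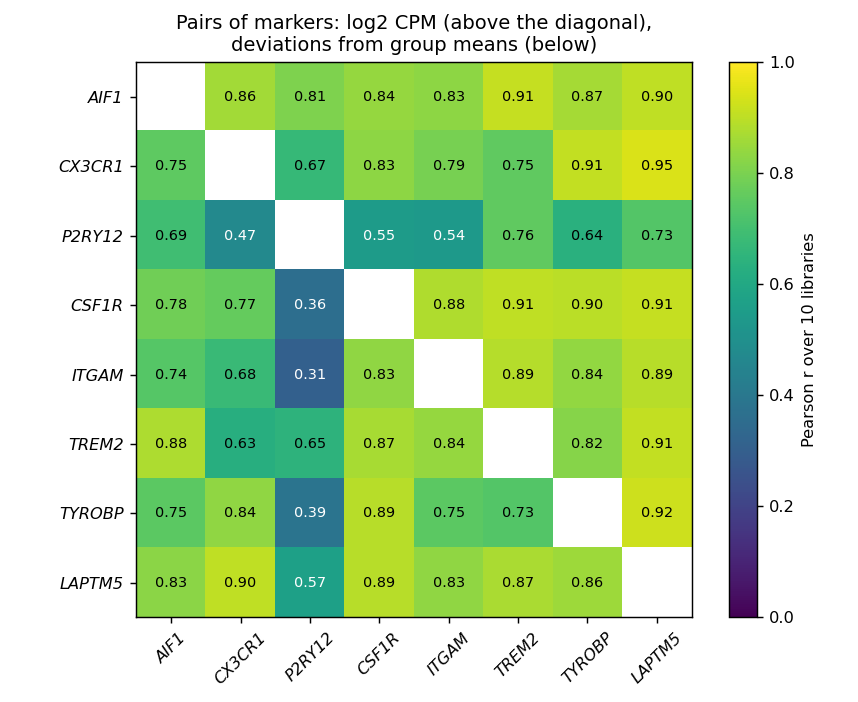
Pearson's r over the 10 libraries for each pair of markers, on log2 CPM above the diagonal and on deviations from group means below it, with the value printed in each cell. The row and column of P2RY12 hold the lowest values, down to 0.31 below the diagonal.

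The genes most like the 8 markers were ranked by the mean r of their deviations with those of the markers. Among genes with a symbol the 10 highest were NCKAP1L (0.86), PLAGL1 (0.85), CALCR (0.84), ZFP36L2 (0.84), AXL (0.83), KLF11 (0.83), LCP1 (0.83), PRKD3 (0.82), HLA-DRA (0.81) and MILR1 (0.81). The median over the other 14424 genes was 0.01 and the 99th percentile 0.70. NCKAP1L and LCP1 encode actin regulators of blood-derived cells, AXL a receptor kinase for the clearance of dead cells, and HLA-DRA a chain of MHC class II. This ranking is a description only. With only 10 libraries and so many genes, the place of a single gene in it carries little weight. When the same ranking was run on simulated data, unrelated genes reached values as high as these. The simulated markers were set to be more alike than the real ones, so those values cannot be compared directly with the ones here.

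Genes known from microglia and other myeloid cells whose pairing did not depend on the study's test were then examined. The lists themselves were chosen with earlier results of these data known, so their counts are a description and not independent support. Of 12 microglial transcription factors, 11 had enough counts and 0 were DEGs, and 3 had an unadjusted p under 0.05 with a higher mean in WD, as had 4.91% of all genes. All 11 log2 fold changes were above 0, as were 51.9% of those of all genes, and their median was 0.62. IRF8, a factor of the microglial and monocyte lineage, was 27.3 ± 7.78 CPM (SD, n = 5) in control and 55.7 ± 33.2 CPM in WD, a log2 fold change of 0.98 (SE 0.303, edgeR padj = 0.229). MEF2C had a log2 fold change of 0.49 (edgeR padj = 0.492). SPI1, which encodes the master factor PU.1, had 0.66 (padj = 0.663), and SALL1, a microglial identity factor that other brain cells also express, had 0.32 (padj = 0.671). Without WD15 the median of the list was 0.21, with 1 of 11 at an unadjusted p under 0.05, and with RIN as a covariate it was 0.21 as well, again with 1 of 11. The shares of all genes that were higher at this p in these fits were 3.38% without WD15 and 5.16% with RIN.

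Of 29 myeloid receptors and signalling genes, 0 were DEGs in edgeR, 27 of 29 lay above 0 and the median log2 fold change was 0.55. At an unadjusted p under 0.05, 11 were higher and 1 was lower, where 4.91% of all genes were higher and 4.41% lower. CTSS, the cysteine protease cathepsin S of antigen-presenting cells, was 17.3 ± 3.29 CPM (SD, n = 5) in control and 35.4 ± 12.7 CPM in WD without overlap, a log2 fold change of 1.01 (SE 0.241, edgeR padj = 0.0857). It was the 1 gene of the 29 whose groups did not overlap, where 2.62% of all genes tested did not. DESeq2 gave an adjusted p of 0.02 for CTSS, and edgeR with depth as a covariate 0.0413. PTPRC, the leukocyte antigen CD45, had a log2 fold change of 0.90 (edgeR padj = 0.229), PIK3CD, a leukocyte phosphoinositide kinase, 0.83 (padj = 0.268), and ITGB2, the partner of ITGAM, 0.96 (padj = 0.395). CSF3R, the receptor of granulocyte colony stimulating factor, had -1.16 (padj = 0.531) on 184 counts in all. Without WD15 the median of the 29 was 0.26, with 26 above 0 and 5 higher at an unadjusted p under 0.05 (3.38% of all genes in that fit). With RIN as a covariate the median was 0.18, with 25 above 0, 5 higher and 1 lower (5.16% of all genes were higher).

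Of 5 genes for ligands of the marker receptors, 4 lay above 0 and 0 were DEGs, or 3 of 4 without APOE, which is paired only in the rows of small p. CSF1, a ligand of CSF1R, was 34.1 ± 6.69 CPM (SD, n = 5) in control and 37.7 ± 7.07 CPM in WD, a log2 fold change of 0.14 with a 95% interval of -0.26 to 0.55 (edgeR padj = 0.886). CX3CL1, which encodes fractalkine, had -0.20 with an interval of -0.76 to 0.36 (padj = 0.885). C3, the complement component whose fragment binds complement receptor 3, had 1.06 (padj = 0.314), and ICAM1, an adhesion ligand of the beta 2 integrins, 1.04 (padj = 0.333). APOE, a lipoprotein bound by TREM2, had 0.32 (padj = 0.631).

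Of 7 cytokine genes with a paired ID, 3 had enough counts to be tested and 0 were DEGs. IL1B, a cytokine of activated microglia, had a log2 fold change of 0.12 with a 95% interval of -0.56 to 0.80 (edgeR padj = 0.949). TGFB1, which maintains microglial identity, had 0.60 (padj = 0.531), and IL18 had 1.18 (padj = 0.4) on 254 counts in all. TNF had 48 counts over the 10 libraries and was not tested, and neither were IL6, IL10 and CCL2. These 4 had 36 to 64 counts each over all libraries and did not pass the count filter.

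**Figure D5:**
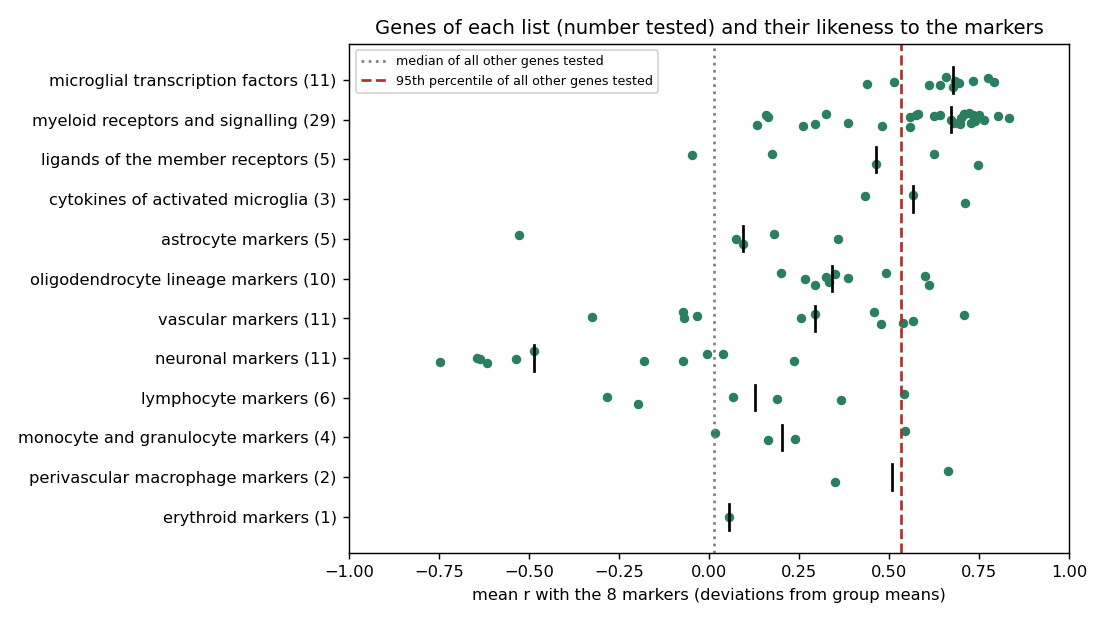
Mean r of each gene with the 8 markers, on deviations from group means (horizontal axis), by gene list, with the list median as a black bar and the median and 95th percentile of all other genes tested as vertical lines. The transcription factors and the myeloid receptors lie mostly to the right of the 95th percentile (0.53), and neuronal markers mostly to the left of 0.

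On deviations from group means, 9 of the 11 transcription factors and 21 of the 29 receptors and signalling genes had a mean r with the markers above the 95th percentile of all other genes (0.53). The list medians were 0.68 and 0.67. Without WD15 the 95th percentile was 0.42, and 6 of 11 and 16 of 29 were above it. IRF8 reached 0.79 and BTK, a kinase of myeloid and B cells, 0.76, while FGR, CSF3R and TGFBR1 lay between 0.13 and 0.16. For other cell types the list medians were 0.09 for astrocyte markers, 0.34 for oligodendrocyte lineage markers, 0.29 for vascular markers and -0.49 for neuronal markers. In that order 0 of 5, 2 of 10, 3 of 11 and 0 of 11 were above the 95th percentile. Monocyte and granulocyte markers had a median of 0.20 and lymphocyte markers 0.13. In each of these lists 1 gene was above the 95th percentile, CCR2 (0.54) and TCF7 (0.54). Without WD15 CCR2 had 0.68. Of the perivascular macrophage markers CD163 had 0.66, above the 95th percentile, and VSIG4 0.35, with a median of 0.51. Without WD15 the lists lay closer together. The medians were then 0.42 for the transcription factors, 0.43 for the myeloid genes and 0.44 for the oligodendrocyte lineage markers, of which 5 of 10 were above the 95th percentile. Astrocyte markers then had -0.07, vascular markers 0.22 and neuronal markers -0.21. For the 9 neuronal markers paired without the study's test the median was -0.18 with all libraries and 0.02 without WD15.

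Markers of other cells in the tissue were examined beside the 8 genes, and 0 of them were DEGs in edgeR without covariates. With depth as a covariate edgeR called HEYL, CAMK2A and MYT1L, and with RIN it called ALDOC. Markers of perivascular macrophages, which line brain vessels and share several of the 8 genes, were represented by CD163 and VSIG4, both paired only in the rows of small p. CD163 was 79.0 ± 37.9 CPM (SD, n = 5) in control and 220 ± 152 CPM in WD, a log2 fold change of 1.46 (SE 0.382, edgeR padj = 0.139). VSIG4 had a log2 fold change of 1.45 (padj = 0.148 in edgeR, and past the threshold in DESeq2 at 0.0314). Its groups did not overlap, as for 2.62% of all genes tested. The summed level of both was 47.8 to 155 CPM in control and 99.1 to 507 CPM in WD. Their part in the levels of the 8 markers was not tested.

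The sum over 7 monocyte and granulocyte markers was 16.3 to 44.2 CPM in control and 13.2 to 29.2 CPM in WD, 4 of 7 were tested, and all 4 had a log2 fold change below 0, among them LTF (-0.74, edgeR padj = 0.752) and FLT3 (-0.57, padj = 0.536). CCR2, the receptor of recruited monocytes, had a log2 fold change of -0.01 with a 95% interval of -0.82 to 0.79. Lymphocyte markers summed to 29.5 to 106.4 CPM in control and 24.8 to 67.4 CPM in WD over 11 genes, and 2 of the 6 tested lay above 0. TCF7 had an adjusted p of 0.649 and GATA3 one of 0.655 in edgeR. Erythroid markers summed to 2.18 to 13.2 CPM in control and 2.77 to 6.45 CPM in WD, and GATA1 was the one of 4 that could be tested (log2 fold change 0.21, padj = 0.947).

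Among cells of the nervous tissue itself, 10 of 11 neuronal markers lay below 0, with a median log2 fold change of -0.42. For the 9 of them paired without the study's test the median was -0.18. Over all 11 it was -0.28 with RIN as a covariate and -0.30 without WD15, where 3 lay above 0. CAMK2A had -0.87 (edgeR padj = 0.0501), MYT1L -0.73 (padj = 0.0963) and CAMK2B -0.51 (padj = 0.367), and DESeq2 called CAMK2A and MYT1L. Their summed level was 1165 to 1409 CPM in control and 935 to 1249 CPM in WD. Of 5 astrocyte markers 4 lay above 0, 4 of the 5 were paired only in the rows of small p, and their sum was 542 to 751 CPM in control and 877 to 1119 CPM in WD. AGT, angiotensinogen, had 0.67 (padj = 0.192), ALDOC 0.59 (padj = 0.229) and ALDH1L1 0.55 (padj = 0.39). ACSBG1, the one below 0, had -0.81 (padj = 0.416). The groups did not overlap for AGT and ALDOC, higher in WD, nor for ACSBG1, CAMK2A and MYT1L, lower in WD. Of all genes tested 2.62% did not overlap. Of 10 oligodendrocyte lineage markers 9 lay below 0, among them OPALIN (-0.52, padj = 0.491), CSPG4 (-0.55, padj = 0.531) and GPR17 (-0.52, padj = 0.759). OPALIN and CSPG4 were paired only in the rows of small p. For the 8 paired without the study's test the median was -0.18, and 0 of them had an unadjusted edgeR p under 0.05. Of 11 vascular markers 7 lay above 0, with FLT1 at 0.62 (padj = 0.362), KDR at 0.64 (padj = 0.402) and HEYL, a mural cell gene, at -1.16 (padj = 0.104). DESeq2 called ALDOC, AGT and HEYL. The part of cell composition in the levels of the microglial markers was not tested.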

How the data were processed

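Per the labels, the RNA was ribosome-depleted, made into libraries with a strand-marking kit and sequenced as read pairs. The authors trimmed and merged reads with BBDuk, aligned them with STAR to Camdro2 and deposited raw counts per Ensembl gene ID from FeatureCounts. How strand and reads matching several genes were handled, and the annotation release, are not given in the sources used here, so genes that overlap or have close copies are uncertain. A second deposited table, of normalized values, was not used.

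Symbols came from lists published with the study, in part shortened in the copy used here, which gave 4263 of 22444 IDs 1 symbol each. Other IDs were left out, and a symbol shared by several IDs was dropped. RIN came from the study's sample list. The 8 markers and all gene lists were chosen with earlier results of these data known. The genes named are the 8 markers, in each list the genes past the threshold or else the 3 with the smallest p, a set of core myeloid genes, and the 10 genes with a symbol most like the markers. BTK, FGR, TGFBR1, CSF3R, CCR2 and ACSBG1 fall outside this rule where named and were chosen after their values were seen. A few genes that the rule would name are not reported here.

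Groups were compared with edgeR 4.0.16 in R 4.3.3 (TMM, filterByExpr by group, robust quasi-likelihood F test, Benjamini-Hochberg adjustment over 14432 genes, threshold 0.05). DESeq2 1.42.0 was an alternative. Levels are CPM after TMM, and correlations use log2 CPM with a prior count of 2. Permutation tests of the correlations with RIN and depth were two-sided with 100000 resamples (numpy 2.4.6, scipy 1.17.1). Alternatives changed the tool, the scaling, the filter, the prior count and the covariates (RIN, depth) and left out each library in turn. The correlations on deviations without WD15 or with RIN, and the list values under other settings, were added after seeing the data. Each step was tested on simulated data. The edgeR step gave no call in the wrong direction but missed many changes of the size seen here, and in some simulations its share of false calls was above the nominal one. The correlation step matched a separate calculation, and some unrelated genes entered its most alike genes.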

Additional observations from a re-analysis of the deposited data

Results flagged for a closer look

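Of 36 groups of 5 libraries (18 genes, each in control and WD), 1 held a library far from the others, where chance alone gives about 1 in 20. CSF1R in CON2 was 1.45 times the next highest control, and on the log2 CPM scale this gap was 0.838 of the range of the control group. CON2 was also the control with the highest summed level of the 8 markers.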

How the results depend on the processing

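In all 142 alternative values of the 8 markers the log2 fold change stayed above 0 (0.28 to 1.34), and 0 of 142 passed the threshold (adjusted p from 0.0889 to 0.885). For 6 of the 8 the pairing by small p largely fixed the direction in these fits of the same libraries. The 2 markers also paired without the study's test ran from 0.28 to 0.79 (CSF1R) and from 0.46 to 1.13 (ITGAM). Among the values with 1 library left out, the one without WD15 was lowest for 7 of the 8 markers, and it changed 6 of them by more than 1.5 times. The count of markers whose groups do not overlap ran from 1 to 4 when single libraries were left out (4 without CON2, 2 without WD9), where 4.19% and 3.24% of all genes did not overlap. The pairing by small p bears on these counts too, and nothing is read from them. The median pairwise r, 0.85, was 0.74 as Spearman's rho, 0.71 to 0.90 with single libraries left out, 0.57 on deviations without WD15 and 0.44 on deviations from a fit on group and RIN. The count of myeloid companion genes past the threshold rose from 0 to 1 with DESeq2 and to 1 with depth as a covariate, CTSS in both. AIF1 and TYROBP gave no value when at least 10 counts were required in every library. No paired analysis was possible because the groups share no replicate numbers in the labels. Depth limits AIF1 and TYROBP most among the 8 markers, with 436 and 507 counts over all libraries.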
